A study of Rattus norvegicus with 113 samples.

Results

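Gene expression in the hippocampus of rats was compared between TBI and sham injury 6 months after the procedure, on 12 arrays chosen by their sample titles out of the 113 samples of the series. All rats were adult male Sprague-Dawley rats when they entered the study, and their age is not given more closely in the sources used here. The 4 TBI rats received a parasagittal fluid percussion injury, in which a pulse of fluid strikes the exposed dura. The labels call this injury moderate and the study's methods call it severe. The 4 sham rats had the same isoflurane anesthesia, scalp incision and opening of the skull without the pulse, so sham and TBI rats share the surgery. The 4 naive rats of the same interval were neither anesthetized nor handled. Each array held RNA of whole dissected hippocampus, a mixture of all its cell types, and the labels do not give the side of the brain.

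The hippocampus holds the pyramidal neurons of fields CA1 to CA3 and the granule neurons of the dentate gyrus, a circuit that is needed for memory and is vulnerable to percussion injury. After injury, microglia, the resident macrophages of the brain, and astrocytes take up reactive states in which complement, antigen presentation, protease inhibitor and cytoskeletal genes are raised. The measurements describe which of these programs, and which neuronal genes, stood apart from sham surgery long after the injury.

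A level is given throughout as the log2 of a probe's signal relative to the median probe of its array, so that 1 unit is a doubling, and levels of different probes are not compared with each other. Between 41.3% and 72.5% of the 45598 probes were well above background on the naive arrays, 46.6% to 56.8% on the sham arrays and 49.5% to 57.3% on the TBI arrays. The markers Wfs1 and Fibcd1 of CA1, Prox1 and C1ql2 of the dentate gyrus, and Snap25 of neurons were well above background on all 12 arrays, whereas the dentate marker Lct was so on none. The cortical marker Rorb was well above background on 2 naive, 1 sham and 2 TBI arrays. Naive and sham arrays lay on 1 slide and the TBI arrays on another, scanned on the same day, and the effects of slide and of injury cannot be told apart. Naive replicate 3 stood apart from the other naive rats in immune genes. Its level of Cd74, the invariant chain of MHC class II, was 10.64 against 2.07 to 5.14 on the other naive arrays, and its level of complement C3 was 9.17 against 4.11 to 5.23. Since all 3 groups share 1 estimate of the spread, this array enters the error of the TBI and sham comparison too, and values without it are given beside many of the immune genes and lists.

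Few transcripts differed between TBI and sham rats once all probes were taken into account. Limma tested 22347 probes and called 3 at an adjusted p under 0.05 (0.0134%), all of them higher after TBI, and 634 had an unadjusted p under 0.05. The 3 probes were tested because they were well above background on all 4 TBI arrays, whereas they were so on 1, 0 and 0 sham arrays, and 0 probes were called when detection was asked of both groups. The thresholds of the study's methods, namely 1.4-fold or more together with p under 0.05 before adjustment, were passed by 425 probes that were higher (1.9%) and 138 that were lower (0.618%). Of these 563 probes, taken by the array median, 75.5% were higher. Each other processing gave its own set of probes past the thresholds. Of that set 64.5% were higher by the 75th percentile and 66.6% after quantile normalization. It was 65.1% in the authors' normalized values and 88.6% after normexp background correction. Counted by named gene, 177 of 10620 genes were past these thresholds and higher (1.67%) and 47 were past them and lower (0.443%). Over all named genes the 4 TBI arrays lay above all 4 sham arrays in 790 (7.44%) and below them in 188 (1.77%), and 102 of the higher and 14 of the lower genes past the thresholds were among these. At these thresholds a gene has not passed a correction for the number of genes tested, and "past the thresholds" below means no more than that.

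**Figure D1:**
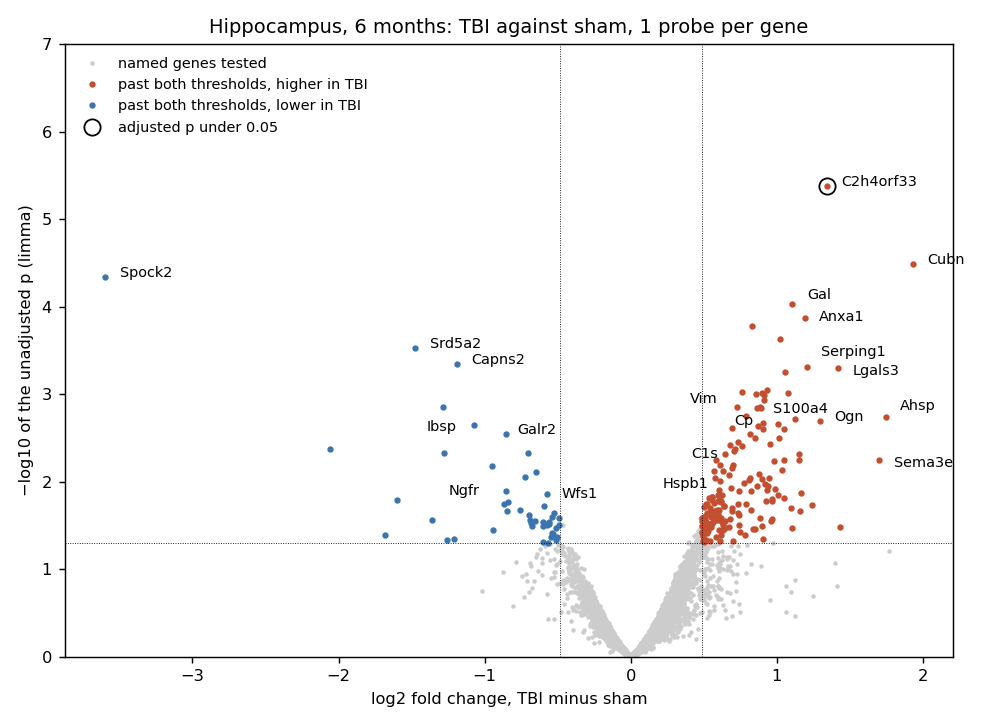
The log2 difference between TBI and sham rats in the hippocampus at 6 months (x axis) against the negative log10 of the unadjusted limma p (y axis) for 10620 named genes, 1 point per gene. The 177 higher genes past a fold of 1.4 and a p of 0.05 are in red, the 47 lower ones in blue, dotted lines mark both thresholds, and the circle marks C2h4orf33, the 1 gene with an adjusted p under 0.05.

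The probe for accession NM_031686, which has no symbol in the annotation used here, had levels of 0.48, 0.53, 0.98 and 0.68 in the TBI rats. The sham rats had -1.91, -1.30, -1.10 and -0.83, and the naive rats 0.04, -1.17, -0.98 and -1.12. All TBI arrays lay above all sham and naive arrays, but the probe was well above background on only 1 sham array. The difference from sham was 1.96 (SE 0.265, limma, adjusted p = 0.00468), a size that rests on sham readings mostly not well above background. A second probe for the same accession, too dim to be tested, read -0.43, -0.42, -0.21 and -0.37 after TBI and between -2.86 and -1.52 in sham rats. The call of the first probe was lost in a fit of the TBI and sham arrays alone (adjusted p = 0.0708) and without naive replicate 2.

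Of the named genes 1 of 10620 passed the adjusted threshold (0.00942%), C2h4orf33, an uncharacterized open reading frame. Its levels were 1.05, 0.73, 0.49 and 0.26 in the TBI rats and -0.83, -0.83, -0.95 and -0.22 in the sham rats. The naive rats had 0.16, -0.22, 0.30 and 0.18, which overlapped the TBI rats. From naive rats C2h4orf33 differed by 0.53 after TBI (limma, adjusted p = 0.224). The TBI and sham groups did not overlap, and no sham array was well above background. By the array median, with the sham arrays taken at the limit of detection, C2h4orf33 was at least 2.04-fold higher after TBI (limma, adjusted p = 0.0328). Over the alternatives its log2 difference from sham rats ran from 0.50 to 1.50, and the low end lies below that bound. The unnamed transcript ENSRNOT00000075679 was at least 1.51-fold higher on the same reckoning (adjusted p = 0.0328). Its log2 difference ran from 0.42 to 1.95 over the alternatives, again reaching below the bound. Its naive levels, -0.83, -1.04, -0.14 and 0.34, overlapped the TBI levels, at -0.33 to 0.30. From naive rats it differed by 0.39 after TBI (limma, adjusted p = 0.611). In the fit of the TBI and sham arrays alone both transcripts had an adjusted p of 0.0885.

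The 12 largest rises past the thresholds among genes whose TBI and sham arrays separated ran from 1.05 to 1.93. Lgals3, galectin-3, a lectin of activated microglia and macrophages, stood at 2.67, 3.49, 3.82 and 3.87 in the TBI rats. In the sham rats it stood at 2.56, 1.81, 1.25 and 2.55, and in the naive rats at 3.21, 2.34, 4.16 and 2.70. The TBI and sham arrays separated, narrowly for TBI replicate 1, whereas naive and TBI arrays overlapped. The difference from sham was 1.42 (SE 0.349, limma, adjusted p = 0.53), and a second probe gave 1.38. Without naive replicate 3 the adjusted p was 0.0435, and it was above 0.05 under every other alternative run.

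Serping1, the inhibitor of the first complement component, had levels of 4.19, 4.54, 4.87 and 5.12 after TBI and 3.95, 3.69, 3.02 and 3.25 after sham surgery. Its difference was 1.20 (SE 0.295), with naive rats at 2.89 to 4.55, and the adjusted p in limma without naive replicate 3 was 0.0769. Anxa1, the anti-inflammatory phospholipid-binding annexin, had levels of 3.19, 3.58, 3.52 and 4.17 after TBI and 2.72, 2.63, 1.76 and 2.57 after sham surgery. Anxa1 was also above every naive array, which lay between 2.01 and 2.92, and its difference from naive rats was 1.03 (limma, adjusted p = 0.0255). Against sham rats the adjusted p of Anxa1 was 0.0661 without naive replicate 3.

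Gal, the neuropeptide galanin, which neurons raise after injury, was higher in every TBI rat than in any sham or naive rat. The TBI rats had 4.94, 4.89, 5.42 and 5.75, the sham rats 4.68, 3.84, 4.22 and 3.84, and the naive rats 4.12, 4.14, 4.21 and 4.42. All 4 TBI arrays lay above all 8 others. The difference was 1.11 from sham (SE 0.233, limma, adjusted p = 0.3) and 1.03 from naive rats (adjusted p = 0.0141). Galr2, a receptor for galanin, was lower by the sham comparison, with 2.62, 1.87, 2.27 and 1.91 after TBI against 2.58, 3.14, 3.19 and 3.17 after sham surgery. One TBI and 1 sham array overlapped for Galr2, and the naive rats, at 1.50 to 2.62, lay with the TBI rats.

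The other large rises were Cubn, the endocytic receptor cubilin, Spp1, the secreted phosphoprotein osteopontin, Cyp4b1, a cytochrome P450 of fatty acid oxidation, and Dscc1, a factor of sister chromatid cohesion. To these came the prostaglandin transporter Slco2a1, the poly(A) polymerase Tent5c and the uncharacterized LOC103692300, each with a difference between 1.05 and 1.93. For Cubn no sham array was well above background, which gives at least 1.22-fold. Spp1, Dscc1, Slco2a1 and LOC103692300 were also not well above background on every sham array, and entered the test through the TBI arrays. Slco2a1 stood at 0.74, 1.28, 0.31 and 0.80 after TBI and at or below 0.06 on every sham and naive array. Its difference from naive rats was 1.35 (limma, adjusted p = 0.00464). Over the alternatives its difference from sham rats ran from 0.36 to 1.21. Without naive replicate 3 LOC103692300 differed from naive rats by -0.04.

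The 12 largest falls with separated groups ran from -1.48 to -0.50. Srd5a2, the steroid 5-alpha reductase that makes neuroactive steroids, had -1.57, -0.54, -1.53 and -0.94 after TBI and 1.51, -0.53, 0.24 and 0.10 after sham surgery, and it was well above background on 1 TBI array. Its replicate 2 values, -0.54 after TBI and -0.53 after sham surgery, all but met. Capns2, a small calpain subunit, had 0.74, 1.01, 1.02 and -0.38 after TBI against 2.13, 1.58, 2.25 and 1.19. Capns2 was also below every naive array, which lay between 1.73 and 2.46, with a difference from naive rats of -1.47 (limma, adjusted p = 0.00524).

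Among the falls, Grin2a, the NMDA receptor subunit GluN2A, was lower by -0.53 and the postsynaptic scaffold gene Homer2 by -0.60. Adam23, a neuronal adhesion protein of the disintegrin family, was lower by -0.65, and the remaining 7 differences (Ibsp, Itprid1, Prss34, Wfs1, C10h16orf89, Ndst4 and Raph1) ran from -1.07 to -0.50. Ibsp and Prss34 were not well above background on every TBI array, and entered the test through the sham arrays. For Grin2a the TBI rats had 4.03, 3.76, 3.92 and 3.58 and the sham rats 4.48, 4.66, 4.20 and 4.09. The naive rats, at 2.82 to 4.21, overlapped both groups. For Homer2 the naive rats, at 3.39 to 4.31, lay among the TBI rats, at 3.79 to 4.72, and below all sham rats, of which the lowest was at 4.79.

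**Figure D2:**
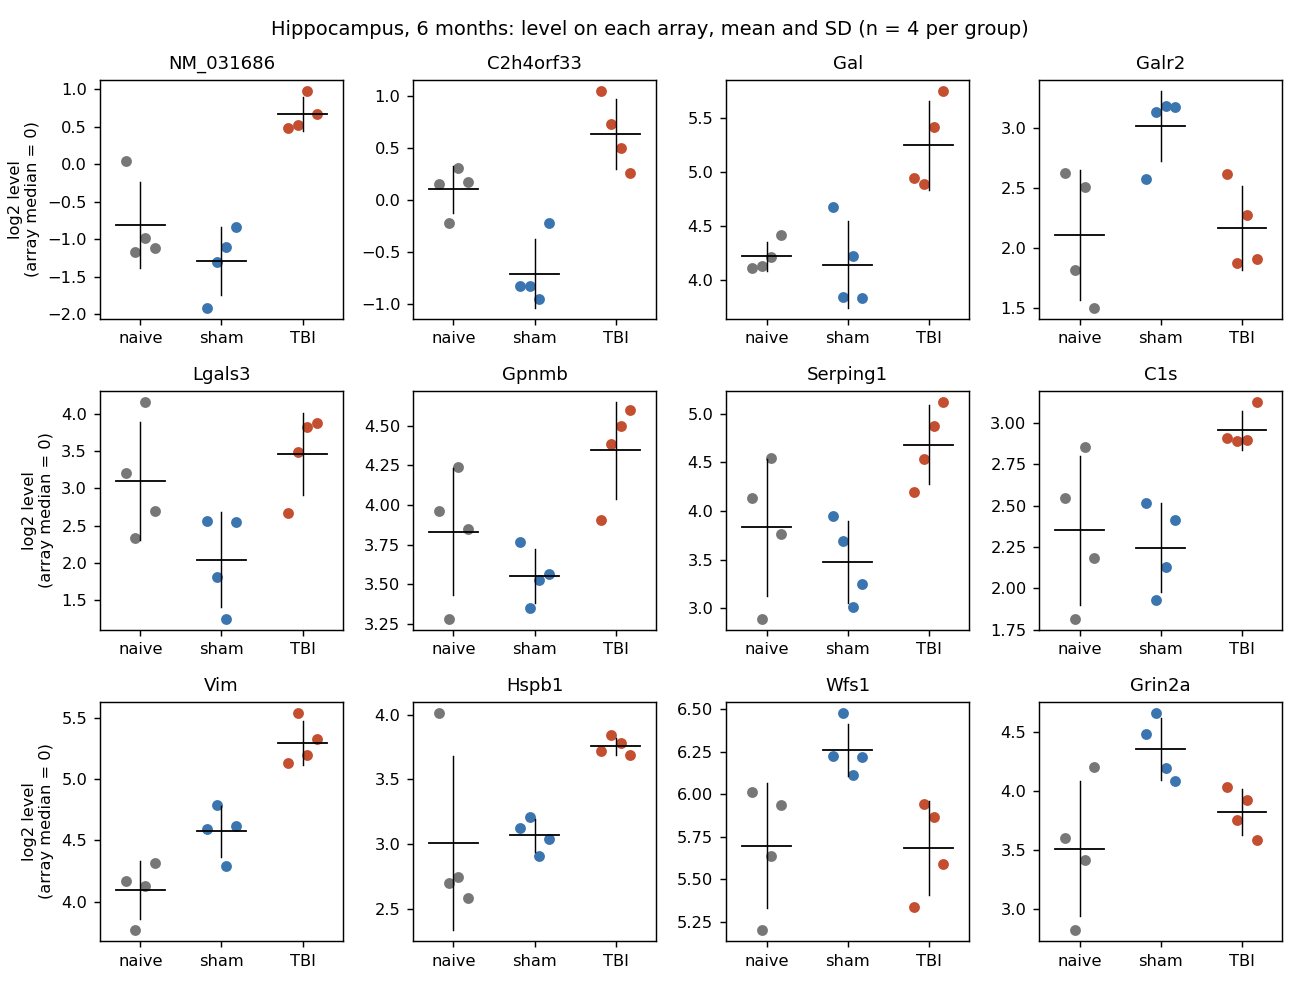
Level of single genes on each of the 12 hippocampal arrays at 6 months (log2 relative to the array median, y axis), by group, with a point per array, a horizontal line at the group mean and a vertical line for the SD (n = 4). All 4 TBI arrays of Gal and Vim lie above all sham and naive arrays, whereas for Lgals3 and Wfs1 the naive arrays overlap the TBI arrays.

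Most genes of the complement and microglia lists had positive differences, few of them past the thresholds. Of the complement list, 22 of 24 genes tested had a positive difference, against 57.2% of all named genes, with a median of 0.30 against 0.03 over all named genes, and 2 were past the thresholds, Serping1 and the classical protease C1s. C1s stood at 2.91, 2.89, 2.90 and 3.13 after TBI and at 2.52, 1.93, 2.13 and 2.41 after sham surgery, a difference of 0.71 (SE 0.224). Without naive replicate 3 the count was 6. C2, the protease that joins C4 in the C3 convertase, had levels of 1.79, 2.44, 2.26 and 2.44 after TBI and 1.72, 1.81, 1.50 and 1.32 after sham surgery. C3, on which all complement pathways meet, had 4.72, 5.76, 5.50 and 5.91 against 5.22, 4.52, 4.42 and 4.77. In both genes TBI replicate 1 fell among the sham arrays. The differences, 0.65 for C2 and 0.74 for C3, were not past the thresholds with all arrays, and were past them without naive replicate 3 and in the fit of the TBI and sham arrays alone.

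The microglia and macrophage list had a positive difference in 23 of 23 genes, with a median of 0.40, but 0 were past the thresholds and 4 without naive replicate 3. Its summed level was 9.79 to 9.99 on the TBI arrays and 9.43 to 9.71 on the sham arrays, which do not overlap, and 9.14 to 11.79 on the naive arrays. The microglial markers Aif1, Csf1r, P2ry12 and Tmem119 differed by 0.13 to 0.37. Cd68, a lysosomal protein of phagocytes, had 1.10, 1.64, 1.52 and 1.56 after TBI and 0.26, 0.69, 0.46 and 0.15 after sham surgery. The groups separated by a difference of 1.06, which was not past the thresholds with all arrays, and was past them without naive replicate 3, where Cd68 stood at 5.56, and in the fit of 2 groups. Cd68 was not well above background on every sham array, and entered the test through the TBI arrays. Over the alternatives its difference ran from 0.67 to 1.18.

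Of the list of disease-associated microglia, genes that microglia raise around damage and lipid debris, 4 of 20 were past the thresholds (Lgals3, Gpnmb, Spp1 and Lpl), with a median of 0.34. Gpnmb, a glycoprotein of lipid-laden phagocytes, stood at 3.90, 4.38, 4.49 and 4.60 after TBI and 3.77, 3.35, 3.53 and 3.57 after sham surgery. The groups separated, and the difference was 0.79 (SE 0.223, limma, adjusted p = 0.741, and 0.363 without naive replicate 3). Over the alternatives between 2 and 6 genes of this list were past the thresholds.

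The list of the leukocyte NADPH oxidase, which makes superoxide, and of the Rac2 signaling around it had a median of 0.51 over 13 genes. Only Plek, the protein kinase C substrate pleckstrin, was past the thresholds (0.96), against 7 genes without naive replicate 3. Plek had 1.73, 1.87, 1.86 and 1.65 after TBI and 1.04, 0.68, 1.01 and 0.55 after sham surgery. The MHC class II list had a median of 0.75 over 6 genes, none past the thresholds and 3 without naive replicate 3. Its median was 0.48 without TBI replicate 3, 1.09 without TBI replicate 1 and 0.16 at the lowest over the alternatives. RT1-Bb, a class II beta chain, was well above background on all 4 TBI arrays and 1 sham array, and entered the test through the TBI arrays. It had the list's highest difference, 1.25, and is in the median and among the 3 genes. Cd74 of this list read 3.65, 4.99, 5.72 and 5.21 after TBI and 3.93, 3.51, 3.97 and 3.91 after sham surgery. Cd74 was thus higher in 3 TBI rats and not in TBI replicate 1.

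Of the interferon response 2 of 26 genes were past the thresholds, Rsad2 and Ifitm1, with a median of 0.24 (0.080 without sham replicate 3), and the value of Rsad2 rested on TBI replicate 3 (4.08 against 2.23 to 2.45 in the other TBI rats). Of the chemokine list Ackr3, a scavenging receptor, and Ccl5, a T cell and monocyte attractant, were past the thresholds out of 11 genes. Of the T cell markers Cd3d differed by 0.13 and Lck by 0.15, Cd3e was lower by -0.87, and Cd8a was well above background on no array. The neutrophil list had a median of 0.39 over 5 genes, of which 4 had a positive difference. Over the alternatives this median was as low as 0.042. Only 2 of the 5 could be tested between sham and naive rats, and the others entered through detection on the TBI arrays. S100a9, 1 of those others, was past the thresholds with a difference of 0.87. Its partner S100a8 was well above background on 2 sham and 3 TBI arrays and was not tested. Their part in the results above was not tested.

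The lists of cytokine and pattern receptor signaling are small. Over all named genes 1.67% were past the thresholds and higher and 0.443% lower, so counts of 0 or 1 are not read as a result about a list. Of interleukin-6 family and Stat3 signaling 0 of 12 genes were past the thresholds, with a median of 0.06, and of TNF and NF-kB signaling 0 of 14, also with 0.06. Interleukin-1 family and inflammasome genes had a median of 0.32 over 10 genes, again with 0 past the thresholds. Of Toll-like receptor signaling 1 of 13 was past them, Tlr7, a sensor of single-stranded RNA, with a difference of 0.97. Over the alternatives that difference ran from 0.38 to 1.10. Without naive replicate 3, Tlr7 differed from naive rats by -1.22 in sham rats (limma, adjusted p = 0.0121). After TBI it differed from them by -0.25 (limma, adjusted p = 0.805). The median of the Toll-like list was 0.23 (0.12 without TBI replicate 3). Leukocyte adhesion genes (0 of 20) and MHC class I genes (0 of 14) had medians of 0.16 and 0.10, the latter 0.051 without sham replicate 3.

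The genes that the study names for this interval or for long intervals after injury were chosen on these samples, so their direction is not independent evidence. Of the 9 genes 7 could be tested. Hspb1, the small heat shock protein of reactive astrocytes, rose past the thresholds, with 3.72, 3.84, 3.78 and 3.69 after TBI and 3.12, 3.21, 2.91 and 3.04 after sham surgery. Its TBI and sham groups separated by a difference of 0.69 (SE 0.251). Naive replicate 1, at 4.02, lay above every TBI array of Hspb1. Without naive replicate 3, Hspb1 differed from naive rats by 0.66 after TBI (limma, adjusted p = 0.184). Stat3, the transcription factor downstream of interleukin-6 family receptors, had 2.43, 2.14, 2.25 and 2.22 against 1.58, 1.78, 1.77 and 1.81. Il18, an inflammasome-dependent cytokine, had 1.60, 1.52, 1.93 and 1.84 against 1.43, 1.14, 0.88 and 0.94.

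In both Stat3 and Il18 the TBI and sham arrays separated, yet the differences of 0.52 and 0.62 were past the thresholds without naive replicate 3 and in the fit of 2 groups, and not with all arrays. Without naive replicate 3, Il18 differed from naive rats by -0.19 after TBI (limma, adjusted p = 0.817) and by -0.81 in sham rats (0.052). Stat3 differed from naive rats by 0.85 after TBI in the same fit (adjusted p = 0.0506). Ngfr, the p75 neurotrophin receptor, fell past the thresholds by 0.85 with 1 sham array among the TBI arrays, and Creb5 differed by 0.20 (SE 0.305). Ngfr was not well above background on every TBI array, and entered the test through the sham arrays. Il1b and Il6, the cytokines interleukin-1 beta and interleukin-6, were well above background on no TBI and no sham array. Il1b had its highest level, 1.98, in naive replicate 3. Of the 7 genes 1 was past the thresholds and higher and 1 lower, and 5 were higher without naive replicate 3.

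Of the reactive astrocyte list 6 of 27 genes were past the thresholds, all higher and none with an adjusted p under 0.05, with a median of 0.34, and between 5 and 9 over the alternatives. Vim, the intermediate filament vimentin, stood at 5.13, 5.54, 5.19 and 5.32 after TBI, at 4.60, 4.79, 4.29 and 4.62 after sham surgery and at 3.77 to 4.32 in naive rats. All TBI arrays lay above all others, and the highest naive array lay just above the lowest sham array. TBI was above sham by 0.72 (SE 0.198) and above naive by 1.20 (limma, adjusted p = 0.0016). S100a6 and S100a4, calcium-binding proteins of reactive glia and of fibroblasts, were higher by 0.90 each, and Cp, the copper ferroxidase ceruloplasmin, by 0.91.

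For Cp the TBI rats had 2.87, 3.38, 3.29 and 3.80 and the sham rats 2.57, 2.64, 2.21 and 2.30, without overlap. Naive rats, at 2.23 to 3.77, overlapped both. Gfap, the astrocyte filament protein, had 7.59, 6.31, 7.35 and 7.81 after TBI and 5.88, 6.76, 7.36 and 6.67 after sham surgery, overlapping groups whose difference of 0.60 was not past the thresholds. From naive rats, at 5.51 to 6.32, Gfap differed after TBI by 1.38 (adjusted p = 0.0127). Of the 20 general astrocyte genes 0 were past the thresholds, with a median of 0.04, and the difference between the reactive and the general list was not tested. Acute phase genes and protease inhibitors gave 3 of 11, namely Serping1, Cp and A2m, the broad protease inhibitor alpha-2-macroglobulin.

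**Figure D3:**
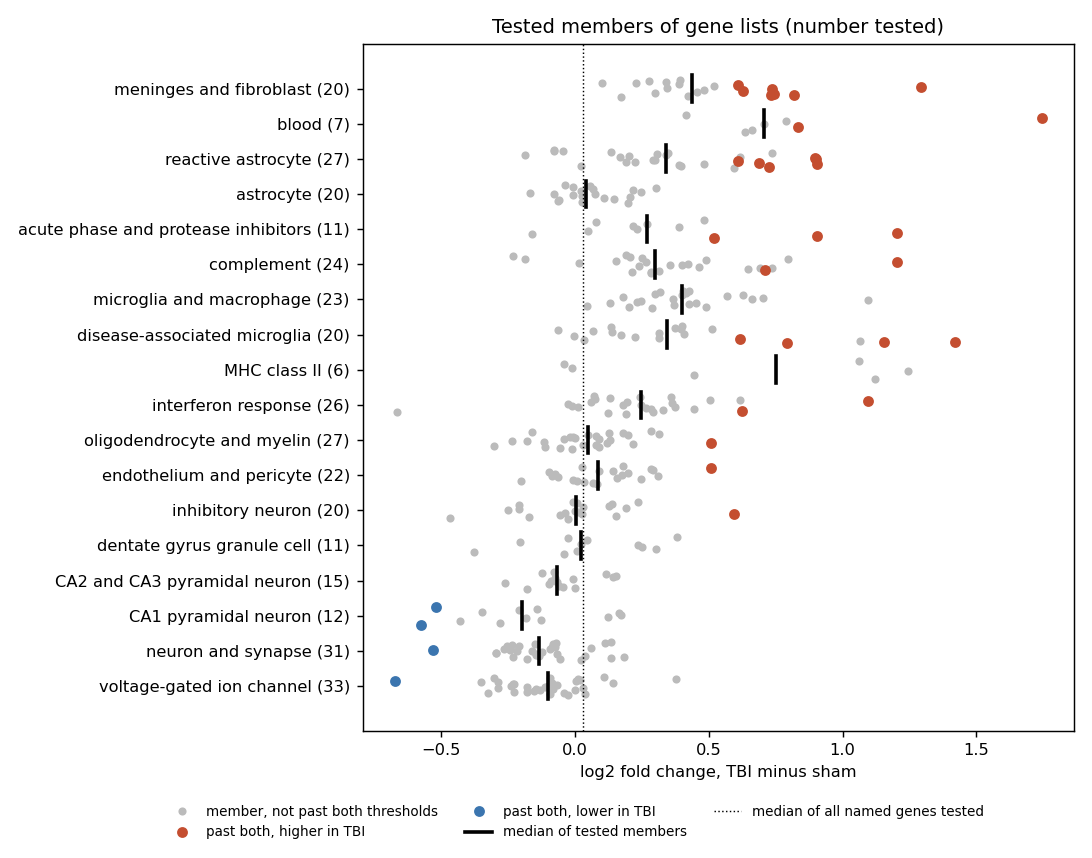
Log2 difference between TBI and sham rats (x axis) of each tested gene of 18 lists, 1 point per gene, with genes past the thresholds in red (higher) or blue (lower), a black bar at the list's median and the number tested in brackets. Fibroblast, reactive astrocyte and microglial lists have medians above that of all named genes at 0.03 (dotted line), and the CA1 and synaptic lists have medians below it.

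Genes of meninges and fibroblasts differed unevenly over the TBI rats. Of this list 20 of 20 genes had a positive difference, with a median of 0.44, and 7 were past the thresholds. Ogn, the small proteoglycan osteoglycin, stood at 2.45, 4.17, 3.30 and 3.14 after TBI and 1.44, 1.89, 2.61 and 1.94 after sham surgery. Col1a2, a chain of type I collagen, stood at 2.45, 3.34, 2.48 and 3.76 against 2.31, 1.95, 2.40 and 2.11. TBI replicate 1 lay among the sham arrays for Ogn and just above them for Col1a2.

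The summed level of the fibroblast list was 9.82, 10.81, 10.57 and 10.85 on the TBI arrays, 9.92 to 10.14 on the sham arrays and 9.59 to 10.67 on the naive arrays. TBI replicate 1 was thus below every sham array and the other TBI rats above them. The number past the thresholds was 13 without TBI replicate 1, 3 without TBI replicate 2 and 1 without TBI replicate 4. The part of fibroblast RNA in the differences of S100a4, S100a6 and Serping1 was not tested. The choroid plexus list gave 2 of 11 past the thresholds (Igf2, which is also on the fibroblast list, and Kcne2). Of its defining markers Kl and Clic6 were well above background on no array, and Ttr, the thyroid hormone carrier of the plexus, differed by 0.05.

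Red blood cell genes were raised in 1 TBI rat. The summed level of the blood list was 13.03 in TBI replicate 3 against 10.79 to 10.95 in the other TBI rats, and the other 11 arrays of all groups lay between 10.24 and 11.60. Hbb, a beta globin, stood at 10.17 in this rat and at 7.92, 8.02 and 7.95 in the others, against 7.07 to 7.97 in sham rats. The median over the 7 blood genes was 0.71, and 0.17 without TBI replicate 3. Past the thresholds were 2 of them (Hbb and Ahsp, a chaperone of alpha globin), and 6 without TBI replicate 2 or 4. The part of blood RNA in the immune differences was not tested.

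**Figure D4:**
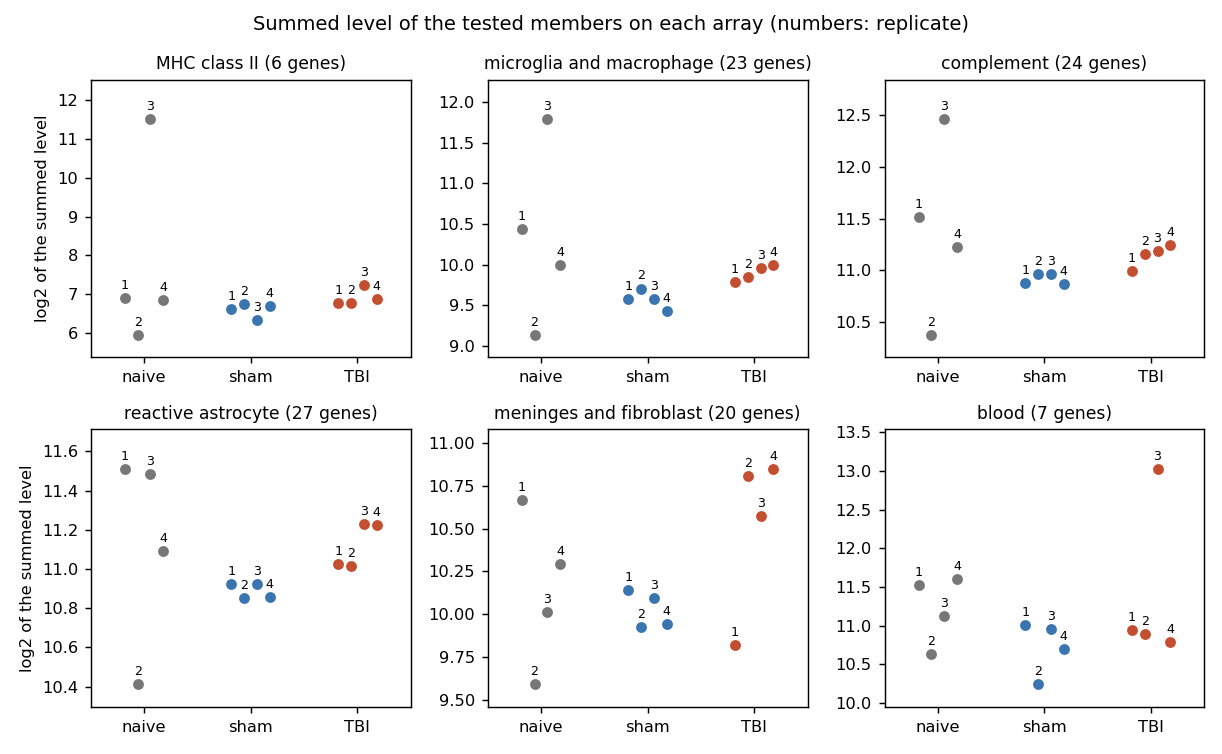
Summed level of gene lists on each array (log2 of the sum of the list's signals relative to the array median, y axis), by group, with a point per array. Naive replicate 3 stands far above for MHC class II at 11.52, TBI replicate 3 for blood at 13.03, and TBI replicate 1 lies low for the fibroblast list.

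Of the neuronal lists, those of CA1, synaptic and ion channel genes had medians below that of all named genes, and those of inhibitory neurons, the dentate gyrus and neuropeptides lay within 0.03 of it. Of 12 CA1 genes 9 had a negative difference, with a median of -0.20, and 2 were past the thresholds, both lower. Wfs1, an endoplasmic reticulum protein that marks CA1, stood at 5.34, 5.94, 5.86 and 5.59 after TBI and 6.23, 6.48, 6.11 and 6.22 after sham surgery, a difference of -0.58 (SE 0.216). Ndst4, a heparan sulfate modifying enzyme, differed by -0.52, and Pou3f1, a transcription factor of CA1, by -0.43, the last not past the thresholds. In Wfs1, Ndst4 and Pou3f1 all TBI arrays lay below all sham arrays.

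The naive rats, however, also lay low. Wfs1 stood at 5.20 to 6.01 in naive rats, on the level of the TBI rats, and Pou3f1 at 5.19 to 6.15. Without sham replicate 2, 0 CA1 genes were past the thresholds. The CA2 and CA3 list had a median of -0.07 (0.04 after normexp) and the dentate list one of 0.02 (-0.02 by the 75th percentile), with 0 genes past the thresholds in either by limma. In bulk tissue, fewer cells of a type and less RNA per cell cannot be told apart.

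Among 31 synaptic and general neuronal genes 7 had a positive and 24 a negative difference, with a median of -0.14, and Grin2a was the only one past the thresholds. Of 33 voltage-gated ion channel genes 1, the potassium channel Kcnq3, was past them, with -0.67 and a median of -0.10 for the list. Of 22 neuropeptides and hormones Gal and Vip, the vasoactive intestinal peptide of inhibitory neurons, were past the thresholds and higher, and Avp, vasopressin, lower (-0.60), with a median of 0.019. Of 20 inhibitory neuron genes 10 had a positive difference, with a median of 0.0035, and Vip was the 1 past the thresholds. Oligodendrocyte and myelin genes had a median of 0.05, and the myelin genes Mbp and Mog differed by -0.01 and -0.06.

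The comparisons with naive rats share arrays with those above and are given as values beside them. Sham and naive rats differed in 728 of 20998 probes by the adjusted p (3.47%), 688 of them higher in sham rats (3.28%). TBI and naive rats differed in 839 of 22233 (3.77%), 822 of them higher after TBI (3.7%). These directions depend on the scaling. By the 75th percentile 3861 and 2948 probes passed, with 44.7% and 43.5% higher. Without naive replicates 2 and 4, which had the highest and the lowest share of probes above background, it was 4316 and 2686, with 18.9% and 28.6% higher.

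The median difference of sham from naive rats was -0.65 for the microglia list and -0.37 for the complement list, against 0.09 over all named genes, and -0.33 and -0.12 without naive replicate 3. For the synaptic list it was 0.46, and 0.34 by the 75th percentile. Sham rats thus had lower microglial and higher synaptic medians than naive rats. The microglial median of TBI against naive rats was -0.37, and 0.10 without naive replicate 3. The synaptic median was 0.26. Vim, Gal, Anxa1, Slco2a1 and Capns2 differed from naive rats as from sham rats, by the values given above, whereas Lgals3, Cp and S100a6 differed from naive rats by 0.20 to 0.36, with adjusted p between 0.698 and 0.831 in limma. Without naive replicate 3 these 3 differences were 0.71, 0.55 and 0.23, with adjusted p of 0.22, 0.285 and 0.8.

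The same contrast was set beside the cortex of the same interval and the hippocampus of other intervals. By the adjusted p 20 of 24856 probes differed in the cortex at 6 months (0.0805%) and 486 of 25106 in the hippocampus at 2 weeks (1.94%). At 12 months limma called 0 of 25364, with 3963 at an unadjusted p under 0.05. At 2 weeks and 12 months the sham and TBI arrays shared a slide, whereas in the cortex at 6 months they did not. The test of the difference found 1 probe of 25007 with a TBI effect that differed between hippocampus and cortex (0.004%), 0 of 25153 that differed between 6 months and 2 weeks (1699 at an unadjusted p under 0.05) and 3 of 25388 that differed between 6 and 12 months (0.0118%). The fit between tissues took hippocampus and cortex of a rat as independent. With each rat as a block their consensus correlation was -0.030, and the probe called between tissues kept an adjusted p under 0.05.

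The gene that differed between the tissues was Folr1, the folate receptor of the choroid plexus, by -4.10 (SE 0.541, limma, adjusted p = 0.00267). In the hippocampus its level was 1.26 to 1.53 after TBI and 1.66 to 1.73 in 3 sham rats, with -0.15 in sham replicate 3. In the cortex it was 0.97 to 2.16 after TBI and -2.95 to -2.38 after sham surgery. The hippocampal groups overlapped, and in the cortex no sham and no naive array was well above background, so the size of the difference is not measured there.

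Differing between 6 and 12 months were the unnamed transcripts NM_031686 (2.44, SE 0.359, limma, adjusted p = 0.0143), FQ210180 (1.33, adjusted p = 0.0143) and AA925254 (1.96, adjusted p = 0.0368). AA925254 was well above background on 0 sham and 3 TBI arrays at 6 months and on 4 sham and 1 TBI array at 12 months, so its value rests on readings below that limit. FQ210180 was above it on all of these arrays. The NM_031686 probe read -0.68, -0.82, -1.04 and -1.31 in TBI rats at 12 months and -0.82, -0.31, -0.51 and -0.26 in sham rats. These groups overlapped, and their means were in the opposite order to that at 6 months. In the cortex at 6 months the same probe read 0.41, 0.18, 1.30 and 2.00 after TBI and -3.09 to -2.01 after sham surgery, where no sham array was well above background (limma, adjusted p = 0.00512).

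For the reactive genes, the effect at 2 weeks was 2.35 for Lgals3 (adjusted p = 0.0397), 2.02 for Gpnmb (0.037), 1.82 for Serping1 (0.0303) and 1.21 for Vim (0.0394) in limma. At 12 months the effect of these 4 genes was -0.21, -0.13, 0.07 and 0.17. Their values at 6 months thus lay between those at 2 weeks and at 12 months, but the difference between intervals did not pass an adjusted p of 0.05 for any of them. The effect of Gal was -0.07 at 2 weeks, 1.11 at 6 and 0.61 at 12 months, and its differences between intervals did not pass either (limma, adjusted p = 0.456 for 6 months against 2 weeks and 0.772 against 12 months). Gal in the 6-month cortex stood at 4.59, 2.12, 4.40 and 5.34 after TBI and at 1.38 to 2.80 after sham surgery.

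**Figure D5:**
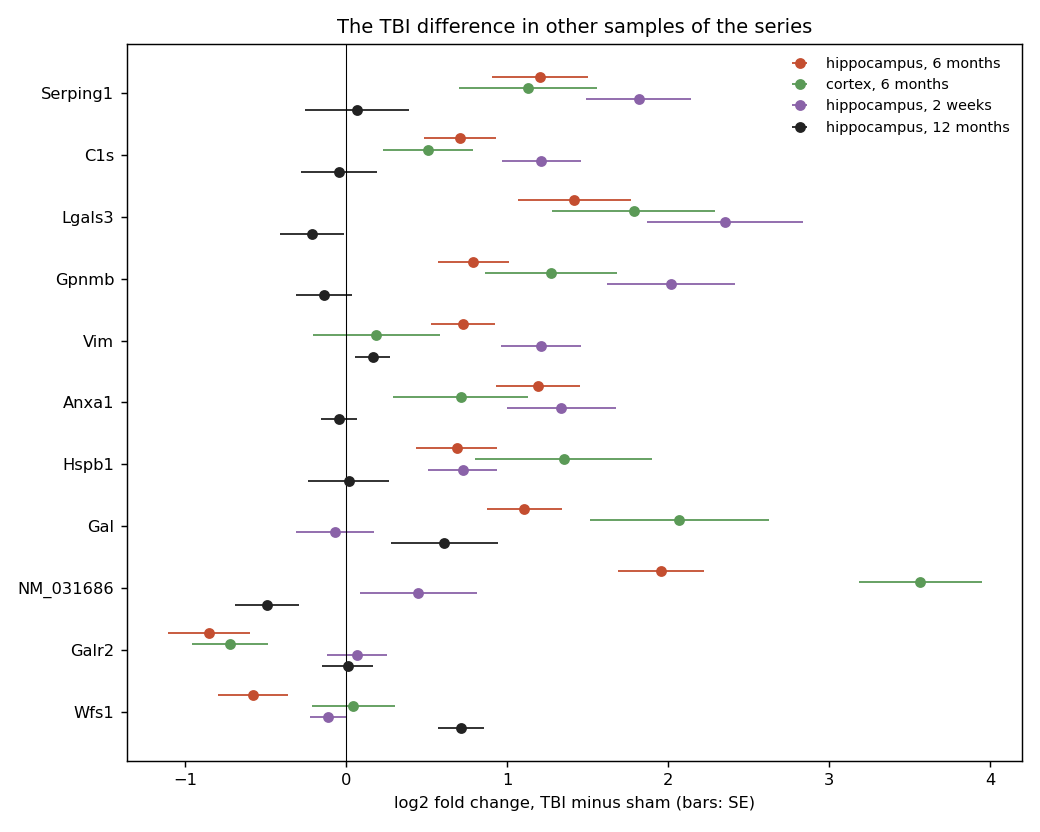
Log2 difference between TBI and sham rats for single genes in the hippocampus at 6 months, the cortex at 6 months and the hippocampus at 2 weeks and 12 months (x axis), with bars for the SE and 1 row per gene. Lgals3, Gpnmb and Serping1 are at 1.82 to 2.35 at 2 weeks and near 0 at 12 months.

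Spock2 and Sema3e, chosen after their values were seen, each split the TBI rats the same way in both tissues. Hippocampus and cortex with the same replicate number came from the same rat, by the animal numbers that the deposited files carry. Spock2, a brain proteoglycan of the testican family, stood at 5.14, 0.74, 0.43 and -0.55 in the hippocampus of the TBI rats and at 5.51, 1.56, 0.54 and 0.54 in their cortex. Its sham level was 4.29 to 5.89 in the hippocampus and 5.42 to 6.43 in the cortex. TBI replicate 1 was thus on the sham level and the other 3 TBI rats far below it, in both tissues, and with a difference of -3.60 (SE 0.712, limma, adjusted p = 0.17) Spock2 had the lowest value of all named genes.

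Sema3e, a repulsive axon guidance ligand, stood at 2.84, -0.37, -0.26 and 2.87 in the hippocampus and at 2.98, -1.40, -0.47 and 2.37 in the cortex of the TBI rats. TBI replicates 1 and 4 were high in both tissues and the other two were on the level of the sham rats, which lay between -1.28 and 0.15 in the hippocampus. Single rats of other groups showed the same low or high readings. At 12 months Spock2 was at 0.60 in naive replicate 4 and 0.19 in sham replicate 4, while every other rat of that interval had at least 4.83. Sema3e was at 2.50 in naive replicate 1 at 2 weeks, and at 12 months it was at 2.69 and 2.89 in 2 sham rats and at 2.40 to 2.45 in 3 TBI rats, with the remaining rats of that interval below 0.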

How the data were processed

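Total RNA was amplified from its poly(A) tails, labelled with Alexa-555 and hybridized to 1-color Agilent rat arrays. The authors deposited Feature Extraction 11.5.1.1 output (protocol GE1_1105_Oct12) with processed signal intensity per probe, of which log2 was taken here and each array's median subtracted, after the study's methods. The deposited normalized table holds signal intensity divided by a constant near each array's 75th percentile, and served as an alternative. The samples, lists and members were chosen with earlier results of these data known.

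Groups follow the sample titles. Limma 3.58.1 (R 4.3.3) was fitted to naive, sham and TBI arrays together, with Benjamini-Hochberg adjustment, and the 2-way differences of TBI effects between tissues and intervals were fitted as interaction terms. A probe was tested if well above background on every array of at least 1 group compared. Nothing in the labels states separate litters or cages, so p-values measure the spread between rats.

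Probes were named by accession through RefSeq's GRCr8 annotation (46.3% of 45598 probes, 16581 genes), with the brightest probe per gene. Named were probes that passed the adjusted threshold, the 12 largest rises and falls past the thresholds with separated groups, up to 4 members per list by smallest p, the study's genes, and up to 5 genes per interaction. Spock2 and further marker genes of the lists were chosen after their values were seen. "At least" folds take the dim arrays at the lowest signal well above background. Alternatives were 75th percentile scaling, quantile normalization, the authors' table, normexp, other filters, a replicate block, a fit of 2 groups and leaving out each array. Fits were tested on simulated data. The number of arrays limits the precision.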

Additional observations from a re-analysis of the deposited data

Results flagged for a closer look

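In groups of 4 arrays, 1 array stood far from the other 3 (by Dixon's 95% critical value) in 17 of 240 groups, where chance gives about 1 in 20. Among TBI rats these were C1s at 3.13 and Spp1 at 0.0629 in replicate 4, Cd53 at 4.11 and Creb5 at 0.416 in replicate 1, and Hbb at 10.2, Rsad2 at 4.08 and the summed blood list at 13.03 in replicate 3. Among sham rats they were Galr2 at 2.58 and Stat3 at 1.58 in replicate 1, Cd74 at 3.51 in replicate 2, Anxa1 at 1.76, Folr1 at -0.152 and Raph1 at 2.77 in replicate 3, and Cyp4b1 at 0.307 in replicate 4. Among naive rats they were Hspb1 at 4.02 and NM_031686 at 0.0422 in replicate 1 and Ogn at 1.08 in replicate 2. All are log2 levels relative to the array median.

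The TBI effect differed between hippocampus and cortex for Folr1 (-4.10), and between 6 and 12 months in the hippocampus for NM_031686 (2.44), FQ210180 (1.33) and AA925254 (1.96), by limma's interaction test. FQ210180 stood at 2.71 to 2.94 after TBI and 2.01 to 2.30 in sham rats at 6 months. At 12 months it stood at 1.82 to 2.23 after TBI and 2.60 to 2.86 in sham rats, so the groups separated in opposite directions.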

How the results depend on the processing

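The 3 probes called between TBI and sham rats numbered 0 after normexp, without a filter, with detection asked of both groups, without naive replicates 2 and 4 (chosen after seeing the data) or in a fit of 2 groups, and 0 (without naive replicate 2) to 11 (without naive replicate 3) when 1 array was left out. They were 5 without sham replicate 2 or TBI replicate 1, and 1 without naive replicate 1 or TBI replicate 4. The 563 probes past the thresholds were 271 after normexp and 491 to 747 with 1 array left out. Replicate numbers did not pair the samples (correlations of deviations between -0.152 and 0.0069 for TBI and sham, -0.111 and 0.122 for sham and naive, -0.0126 and 0.0665 for TBI and naive), and the replicate block gave 21 calls. The 728 sham against naive calls were 3861 (75th percentile), 4042 (quantile), 3908 (authors' table), 1547 (normexp), 5 (no filter), 430 (both groups), 4316 (without naive replicates 2 and 4) and 371 to 2852 (1 array left out). The 839 TBI against naive calls were 2948, 2631, 2960, 2284, 1, 411, 2686 and 245 to 2086 in the same order. The cortex interaction gave 0 calls with both groups and 1 to 15. The 2-week interaction gave 1 (75th percentile and authors' table), 8 (quantile), 131 (without naive replicates 2 and 4) and 0 to 38. The 12-month interaction gave 353, 635, 345, 158, 0, 1, 432 and 1 to 245 in the order above. Between 27 and 33 of 48 lists had a median above that of all genes with 1 array left out. With 1 array left out the difference of Creb5 ran from -0.157 (without sham replicate 2) to 0.475 and that of Folr1 from -0.281 (without sham replicate 3) to 0.348. Of the other single-gene values 1510 kept their direction and their side of the threshold, 58 lost and 11 gained it. Normexp on mean signals and the slide block were not run, the former for lack of the column, the latter because slide and injury cannot be told apart. Probes dim on most arrays limit the calls that rest on them.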
